A study of Mus musculus with 14 samples.

Results

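Fkbp5, Tsc22d3, Per1, Sgk1, Ddit4, Zbtb16, Mt1 and Mt2 are 6 genes known to be induced by glucocorticoids and 2 metallothionein genes. They were followed through all 9 probe sets annotated to these symbols on 14 Affymetrix expression arrays, as 8 of the 8251 genes named on the array. RNA labelled as mouse lymph node came from wild-type animals (Atm+/+, WT) and from animals lacking Atm (Atm-/-, KO), the kinase that starts the signalling that follows DNA double-strand breaks. Untreated tissue was measured on 3 arrays per genotype, and irradiated tissue on 2 at 30 min and 2 at 120 min after ionizing radiation (IR). No other allele or agent is named in the labels, and the sources used here do not give the dose, strain, age or kind of Atm allele. The labels do not say whether replicates A, B and C of a group came from separate animals, so p-values measure only the spread between these samples.

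Glucocorticoids bind a cytoplasmic receptor held by Hsp90 and its co-chaperones, and the receptor then enters the nucleus and binds DNA at paired half-sites called glucocorticoid response elements (GREs). Metallothioneins are small cysteine-rich proteins that bind zinc and copper, and their genes are induced by the metal-sensing factor Mtf1 through metal response elements (MREs) as well as by glucocorticoids and inflammatory signals. In lymphoid tissue glucocorticoids are known for killing immature and resting lymphocytes and for restraining inflammation.

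Promoter sequences in RefSeq's table (build GRCm38.p6) were matched by symbol for 7 of the 8 genes, all but Zbtb16. A search of 250 bases before each annotated start, on both strands, used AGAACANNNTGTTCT for the full GRE and TGCACNC or TGCGCNC for the MRE core. The full GRE occurred in 3 of 32851 windows (0.00913%), and 1 of the 3 belongs to a start of Sgk1 at chr10:21993640-21993889 on the plus strand, with the match beginning 189 bases before the start. An MRE core occurred in 21.4% of windows, and at least 2 in 5.17%. The window of Mt2, at chr8:94172368-94172617 on the plus strand, held 3 of them, beginning 223, 128 and 50 bases before the start. That of Mt1, at chr8:94178839-94179088 on the plus strand, held 1, beginning 23 bases before the start used. The annotated span of Mt1 begins at base 94178883, inside this window, while that of Mt2 begins at 94172618, directly after its window. The 2 windows therefore do not hold like positions, and their counts are not compared. One MRE core each was also found for Ddit4, beginning 184 bases before its start, and for 1 of 2 starts of Per1, beginning 69 bases before it. Shown are the only member window with a full GRE and the windows of both metallothionein genes, written 5′ to 3′ with the matched letters in capitals (GRE in Sgk1, MRE in Mt1 and Mt2).
Sgk1: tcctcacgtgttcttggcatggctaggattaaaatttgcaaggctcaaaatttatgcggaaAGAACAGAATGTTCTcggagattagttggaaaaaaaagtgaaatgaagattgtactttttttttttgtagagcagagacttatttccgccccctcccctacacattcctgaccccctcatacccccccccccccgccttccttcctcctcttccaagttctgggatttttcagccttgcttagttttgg
Mt2: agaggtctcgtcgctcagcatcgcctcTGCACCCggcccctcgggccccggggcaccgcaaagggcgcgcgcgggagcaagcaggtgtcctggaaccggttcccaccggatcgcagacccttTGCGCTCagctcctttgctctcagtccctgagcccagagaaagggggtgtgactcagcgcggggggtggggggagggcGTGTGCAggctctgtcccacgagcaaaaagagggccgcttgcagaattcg
Mt1: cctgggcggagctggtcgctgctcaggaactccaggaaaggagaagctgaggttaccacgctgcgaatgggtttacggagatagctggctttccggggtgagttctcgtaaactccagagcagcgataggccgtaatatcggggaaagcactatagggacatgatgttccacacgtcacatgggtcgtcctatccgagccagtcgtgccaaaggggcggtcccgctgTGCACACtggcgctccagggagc
A match is a description of letters in this window. No array measured binding there.

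The 14 arrays had median deposited intensities of 61.0 to 80.4. Values are linear intensities, and tests used log2(value + 32) after quantile normalization, a scale that understates changes of dim probe sets. Changes are given ± the standard error from limma, with p-values adjusted by Benjamini-Hochberg over 8938 probe sets and called at 0.05. Markers of the labelled tissue and of its neighbours were read on every array. Brightness also depends on each probe set's own probes, so sums of different lists do not compare amounts of RNA or of cells. The summed intensity of 5 salivary gland genes was 32309 to 56477 on single arrays, that of 7 B cell genes 633 to 2280.3 and that of 8 T cell genes 267 to 577. Salivary gland genes were thus bright on every array of this RNA labelled lymph node, so the members' values cannot be assigned to lymphoid cells. In bulk RNA, fewer cells of a type and less RNA per cell cannot be told apart.

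No member was called in any of 15 comparisons. Among 120 tests on 8 probe sets, 12 had an unadjusted p under 0.05 by limma. Over all tested probe sets that share was 5.02% to 10.5% in single comparisons. The tests share arrays and are not independent. The smallest adjusted p was 0.368. The ninth probe set, that of Tsc22d3, did not exceed its array's 40th percentile on any array and was not tested.

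**Figure D1:**
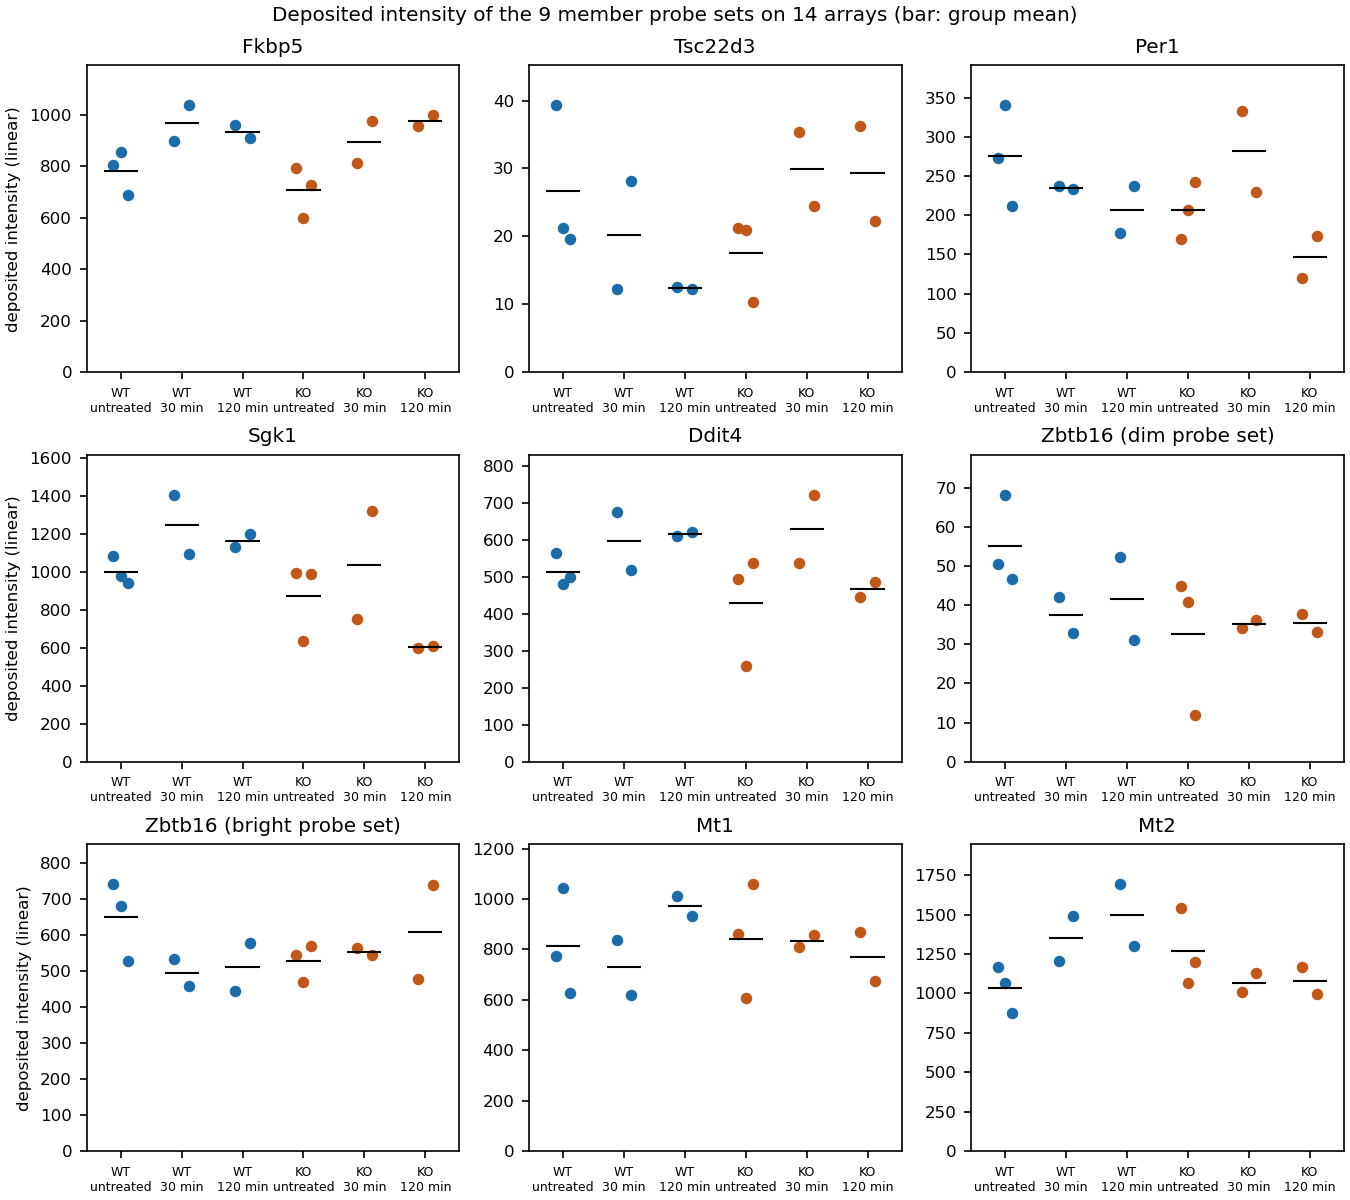
Deposited linear intensity (y axis, from 0, its own scale in each panel) of each member probe set by genotype and time (x axis), with 1 point per array and a bar at the group mean. The Fkbp5 arrays after IR lie between 815.1 and 1037.7, and the Sgk1 arrays of KO at 120 min are its lowest, at 599.5 and 609.9.

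Fkbp5 encodes an immunophilin that binds Hsp90 and lowers the receptor's affinity for hormone. Its intensities were 804.1, 857.2 and 689.2 on untreated WT arrays, 899.0 and 1037.7 at 30 min and 960.7 and 910.5 at 120 min. In KO they were 794.7, 601.0 and 729.1 untreated, 815.1 and 977.5 at 30 min and 955.7 and 1000.7 at 120 min. Both irradiated arrays lay above all untreated arrays of their genotype in KO at both times and in WT at both times by intensity. On the normalized scale the separation held in WT at 120 min and in KO at both times, with overlap in WT at 30 min. The group means ran from 978.2 ± 31.8 (SD, n = 2) in KO at 120 min to 708.3 ± 98.5 (SD, n = 3) in untreated KO, and neighbours in that order did not differ beyond their spread.

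The log2 change of Fkbp5 was 0.22 ± 0.17 in WT at 30 min, 0.19 ± 0.17 in WT at 120 min, 0.34 ± 0.17 in KO at 30 min and 0.43 ± 0.17 in KO at 120 min (limma unadjusted p = 0.0283 for the last, adjusted p = 0.662). Over both times and genotypes the irradiated arrays exceeded the untreated by 0.29 ± 0.10 (95% interval 0.07 to 0.52, limma unadjusted p = 0.0133), which is 1.23-fold. This did not pass adjustment (adjusted p = 0.368), and 0.134% of all tested probe sets were called in that comparison. The mean over genotypes was 0.28 ± 0.12 at 30 min, where 0.0895% of probe sets were called, and 0.31 ± 0.12 at 120 min, where 0.213% were called. The responses of KO and WT differed by 0.12 ± 0.24 at 30 min and 0.24 ± 0.24 at 120 min, intervals that include 0.

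Sgk1 encodes a serine/threonine kinase that controls ion channels and transporters. Its intensities were 1085.3, 979.4 and 939.1 on untreated WT arrays, 1406.0 and 1091.9 at 30 min and 1129.4 and 1199.2 at 120 min. In KO they were 995.6, 635.7 and 988.9 untreated, 750.6 and 1320.1 at 30 min and 599.5 and 609.9 at 120 min. Those last 2 arrays were the lowest of all 14, while the KO pair at 30 min was widely spread and overlapped every group but KO at 120 min. The group means ran from 1249 ± 222 (SD, n = 2) in WT at 30 min to 604.7 ± 7.35 (SD, n = 2) in KO at 120 min, and of neighbours in that order untreated KO and KO at 120 min alone did not overlap. At 120 min KO minus WT was -0.86 ± 0.26 on the log2 scale (limma unadjusted p = 0.00651), a ratio of 0.55 with a 95% interval of 0.37 to 0.819. The adjusted p was 0.375, so the difference was not called, and 0.257% of probe sets were called in that comparison.

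Averaged over the 3 conditions, KO minus WT was -0.45 ± 0.14 for Sgk1 (limma adjusted p = 0.518, with 0.168% of probe sets called). Between 120 and 30 min in KO the change was -0.69 ± 0.26 (adjusted p = 0.621). That value was -0.37 without KO 30 min replicate B and -0.995 without replicate A. The summed intensity of 9 skeletal muscle markers in KO was 3194 to 9992 untreated, 3277 to 3283 at 30 min and 786 to 2957 at 120 min. Sgk1 and the muscle markers were both lower at 120 min than untreated (-0.49 ± 0.24 and a median of -1.72). At 30 min Sgk1 was at 0.20 ± 0.24 (95% interval -0.32 to 0.72) and the muscle median at -0.91. The Sgk1 value was -0.11 without KO 30 min replicate B and 0.51 without replicate A, so its sign is not resolved. In WT the muscle sum was 1141 to 2774 untreated and 3214.4 to 3350.5 at 120 min. None of the 9 markers was called in either genotype at 120 min, but in KO no probe set of the array was called then. All 9 fell in KO at 120 min with an unadjusted p under 0.05 by limma, against 7.22% of all tested probe sets. All 9 were also higher in untreated KO than in untreated WT (median 1.53). Each had an unadjusted p under 0.05 by limma there, against 5.48%. Their part in the Sgk1 values was not tested.

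Ddit4 encodes an inhibitor of the growth-controlling kinase complex mTORC1 and is induced by glucocorticoids, hypoxia and DNA damage. Its intensities were 562.3, 479.3 and 499.0 on untreated WT arrays, 674.7 and 516.5 at 30 min and 609.2 and 619.9 at 120 min. In KO they were 492.3, 259.1 and 536.5 untreated, 535.5 and 720.9 at 30 min and 445.9 and 484.8 at 120 min. One untreated KO array, at 259.1, was the lowest of all 14. The group means ran from 628.2 ± 131 (SD, n = 2) in KO at 30 min to 429.3 ± 149 (SD, n = 3) in untreated KO, with overlap between all neighbours in that order. The change in KO at 30 min was 0.58 ± 0.25 (limma unadjusted p = 0.0399, adjusted p = 0.589). Without that untreated array it was 0.28. In WT the change was 0.17 ± 0.25 at 30 min and 0.22 ± 0.25 at 120 min.

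Per1 encodes a repressor of the circadian clock that glucocorticoids induce quickly. Its intensities were 273.3, 340.1 and 212.2 on untreated WT arrays, 237.5 and 233.1 at 30 min and 177.2 and 236.7 at 120 min. In KO they were 169.4, 207.2 and 242.1 untreated, 333.2 and 229.7 at 30 min and 120.5 and 173.0 at 120 min. Those last arrays include the lowest of all 14, and neighbours in the order of group means overlapped, from 281.4 ± 73.2 (SD, n = 2) in KO at 30 min to 146.8 ± 37.1 (SD, n = 2) in KO at 120 min. At 120 min the mean change over genotypes was -0.38 ± 0.17 (limma unadjusted p = 0.0441, adjusted p = 0.537). In KO the difference between 120 and 30 min was -0.81 ± 0.26 (unadjusted p = 0.0084, adjusted p = 0.534). It was -1.07 without KO 30 min replicate B and -0.56 without replicate A, and neither was called.

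Zbtb16 encodes a zinc-finger transcription factor of natural killer T cells and other innate-like lymphocytes and has 2 probe sets. The brighter one was at 741.5, 680.3 and 528.8 on untreated WT arrays, 533.6 and 459.0 at 30 min and 446.3 and 577.1 at 120 min. In KO it was at 545.0, 469.2 and 569.3 untreated, 563.4 and 545.1 at 30 min and 478.3 and 740.3 at 120 min. Its groups overlapped in each comparison against untreated, with changes from -0.39 ± 0.22 in WT at 30 min to 0.17 ± 0.22 in KO at 120 min. The dimmer one lay between 11.8 and 68.2 and exceeded its array's 40th percentile on 4 of 14 arrays. These were the untreated WT arrays and WT 120 min replicate A. The dimmer one thus passed the filter mainly through the group where it was highest. Its differences from untreated WT, and their p-values, are therefore a description only. Its difference between untreated KO and untreated WT was -0.48 ± 0.22 (limma unadjusted p = 0.0464, adjusted p = 0.911), where the brighter one gave -0.28 ± 0.20. Without KO untreated replicate C, the array at 11.8, it was -0.25.

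Tsc22d3 encodes a leucine-zipper protein that mediates anti-inflammatory effects of glucocorticoids. Its intensities were 39.3, 21.2 and 19.6 on untreated WT arrays, 12.2 and 28.2 at 30 min and 12.6 and 12.2 at 120 min. In KO they were 21.3, 21.0 and 10.3 untreated, 35.4 and 24.4 at 30 min and 36.3 and 22.3 at 120 min. These values lie between the 14.2 and 34.4 percentiles of their arrays, so no order of the groups is read from them. With no filter on low values its change was between -0.32 ± 0.19 (WT at 120 min) and 0.34 ± 0.19 (KO at 30 min).

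Mt1 was at 773.5, 1045.2 and 626.6 on untreated WT arrays, 837.6 and 621.3 at 30 min and 1011.5 and 934.1 at 120 min. In KO it was at 860.8, 606.1 and 1058.6 untreated, 808.6 and 856.4 at 30 min and 868.0 and 675.7 at 120 min. Untreated KO arrays alone span the whole range of the 14, and neighbours in the order of group means overlapped, from 972.8 ± 54.7 (SD, n = 2) in WT at 120 min to 729.5 ± 153 (SD, n = 2) in WT at 30 min. Over both times and genotypes the change after IR was -0.01 ± 0.15 (95% interval -0.35 to 0.32).

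Mt2 was at 1170.6, 1064.9 and 874.5 on untreated WT arrays, 1207.8 and 1488.7 at 30 min and 1691.9 and 1299.9 at 120 min. In KO it was at 1542.2, 1065.7 and 1197.6 untreated, 1009.9 and 1127.1 at 30 min and 1165.5 and 995.7 at 120 min. Irradiated WT arrays lie above the untreated WT arrays, by intensity, at both times, and on the normalized scale at 120 min. Group means ran from 1496 ± 277 (SD, n = 2) in WT at 120 min to 1037 ± 150 (SD, n = 3) in untreated WT, with overlap between neighbours. The log2 change in WT was 0.30 ± 0.22 at 30 min and 0.45 ± 0.22 at 120 min (limma adjusted p = 0.98 and 0.608), against -0.25 ± 0.22 and -0.29 ± 0.22 for the KO arrays. Without KO untreated replicate A, the array at 1542.2, the KO changes were -0.07 and -0.11. Without KO untreated replicate B they were -0.37 and -0.41. The KO response minus the WT response was -0.74 ± 0.31 at 120 min (unadjusted p = 0.0334, adjusted p = 0.663), a comparison in which 0.134% of probe sets were called, and -0.55 ± 0.31 at 30 min, where 0.0783% were called. In WT at 120 min the acute-phase gene Hp rose by 0.99 ± 0.19 (limma adjusted p = 0.047), and Lcn2, another acute-phase gene, was at 1.47 ± 0.33 (adjusted p = 0.0996). Hp was the only 1 called of 7 tested IL-6 and acute-phase genes, against 0.515% of all tested probe sets. Lcn2 is also among the listed glucocorticoid-induced genes. A link of either gene to the Mt2 values was not tested.

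**Figure D2:**
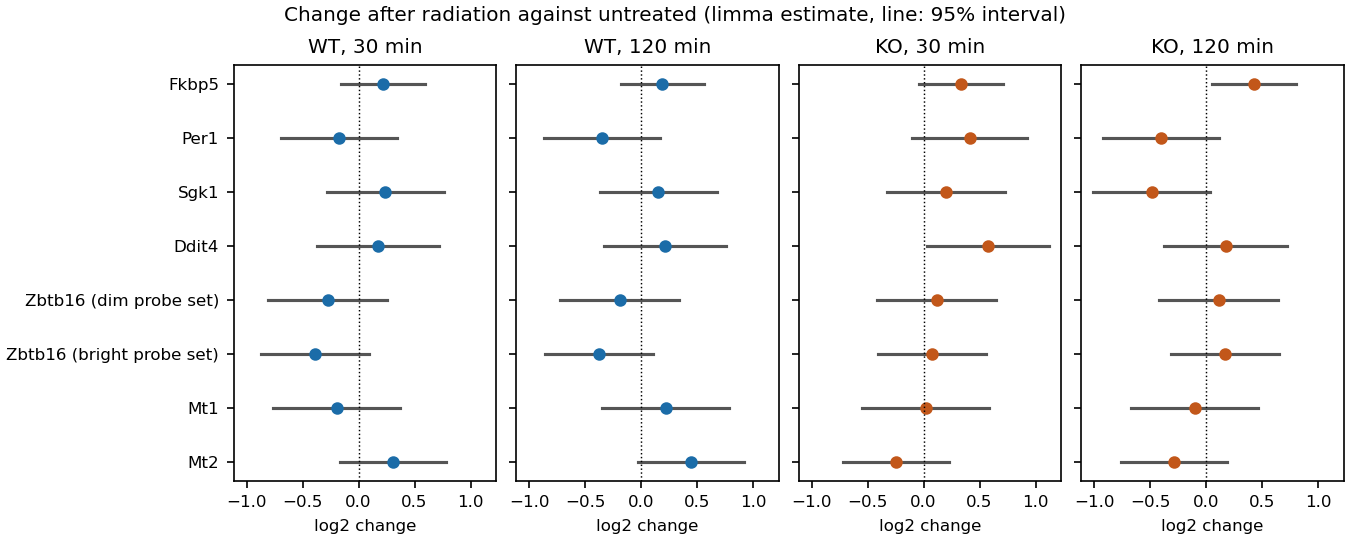
Log2 change after IR against untreated arrays of the same genotype (x axis) for the 8 tested probe sets (y axis), with points at the limma estimate and lines for the 95% interval. The intervals of Fkbp5 in KO at 120 min (0.05 to 0.80) and Ddit4 in KO at 30 min (0.03 to 1.12) lie above 0, and all others include 0.

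The size of change that the data leave for the members can be read from the intervals. In WT, the highest upper bound of the 8 probe sets was 0.78 at 30 min and 0.92 at 120 min, and the lowest lower bounds were -0.87 and -0.87. In KO the highest upper bounds were 1.12 at 30 min and 0.80 at 120 min, and the lowest lower bounds were -0.72 and, for Sgk1, -1.01. The median absolute change of the 8 probe sets was 0.230 in WT at 30 min, 0.219 in WT at 120 min, 0.224 in KO at 30 min and 0.231 in KO at 120 min, against 0.168, 0.190, 0.196 and 0.181 over all tested probe sets. Over the whole array 0.101% of probe sets were called in WT at 30 min, 0.515% in WT at 120 min, and 0% in KO at either time. Limma's unadjusted p-values under 0.05 numbered 0 of 8 in WT at both times, against 5.02% of all tested probe sets at 30 min and 8.66% at 120 min. In KO they numbered 1 of 8 at each time, against 8.38% and 7.22%. Between 120 and 30 min they numbered 0 of 8 in WT, against 5.63%, and 2 of 8 in KO, against 7.16%. After adjustment 0.123% of probe sets were called between the 2 times in WT and 0% in KO.

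Separation of the irradiated from the untreated arrays on the normalized scale was counted beside its share over all probe sets. In WT at 30 min 1 of 8 member probe sets (the dimmer of Zbtb16, downward) did not overlap, against 19.7% of all tested. That probe set passed the filter mainly through the untreated WT arrays, so its separation from them adds no support. In WT at 120 min 3 of 8 did not overlap, all upward (Fkbp5, Ddit4 and Mt2), against 27.0%. In KO at 30 min it was 2 of 8, both upward (Fkbp5 and Ddit4, whose intensities of 535.5 and 536.5 overlapped before normalization), against 22.4%. In KO at 120 min Fkbp5 was separated upward and Sgk1 downward, against 26.7%.

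**Figure D3:**
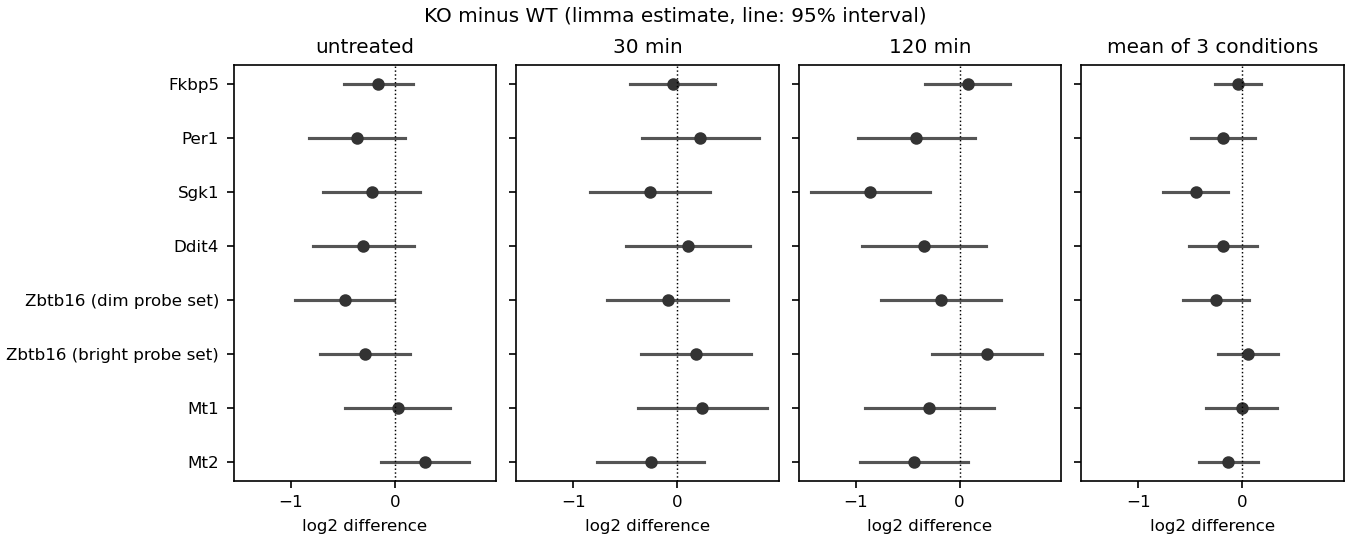
KO minus WT difference on the log2 scale (x axis) for the 8 tested probe sets (y axis) in untreated arrays, at each time and averaged over the 3 conditions, with lines for the 95% interval. The interval of Sgk1 at 120 min (-1.44 to -0.29) is the farthest from 0.

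KO was set against WT at each time. Untreated, 1 of 8 member probe sets (the dimmer of Zbtb16) did not overlap between genotypes, against 10.7% of all tested, and 0% were called over the array. That probe set passed the filter mainly through the untreated WT arrays, so neither its separation nor its p-value here adds support. At 30 min 1 of 8 did not overlap, Mt2, against 31.8%, and 0.101% were called. At 120 min 6 of 8 did not overlap, against 41.5% of all tested. Per1, Sgk1, Ddit4, Mt1 and Mt2 were lower in KO and Fkbp5 was higher, by 0.08 ± 0.19. The median difference of the 8 at 120 min was -0.32, and that of all tested probe sets was -0.00. Of the 8, 1 had an unadjusted p under 0.05 by limma at 120 min (Sgk1), 0 at 30 min and 1 untreated, against 7.17%, 6.70% and 5.48% of all tested probe sets. These comparisons share their arrays with those against untreated.

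Members were also compared with each other over the 14 arrays, taking the brighter Zbtb16 probe set. Of 21 pairs, Sgk1 and Ddit4 alone passed, with Pearson's r = 0.73 (permutation p = 0.00062, adjusted p = 0.013) and Spearman's rho = 0.855 (permutation p = 0.00015, adjusted p = 0.00315). Without the 2 arrays farthest from the median of Sgk1, r was 0.852. With group means removed r was 0.891 (permutation p = 0.0115, adjusted p = 0.241 over the pairs). Both genes were low on the same untreated KO array (635.7 and 259.1) and high on 1 KO array at 30 min (1320.1 and 720.9). The 2 arrays of KO at 30 min had the lowest correlation within a group over all probe sets, 0.913, against 0.935 to 0.961 in the others. Mt1 and Mt2, neighbours on chromosome 8, gave r = 0.344 (permutation p = 0.231, adjusted p = 0.605) and rho = 0.345 (permutation p = 0.229, adjusted p = 0.779). Fkbp5 and Ddit4 gave r = 0.618 (permutation p = 0.0261, adjusted p = 0.274), which was 0.011 without 2 arrays and so rests on them.

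**Figure D4:**
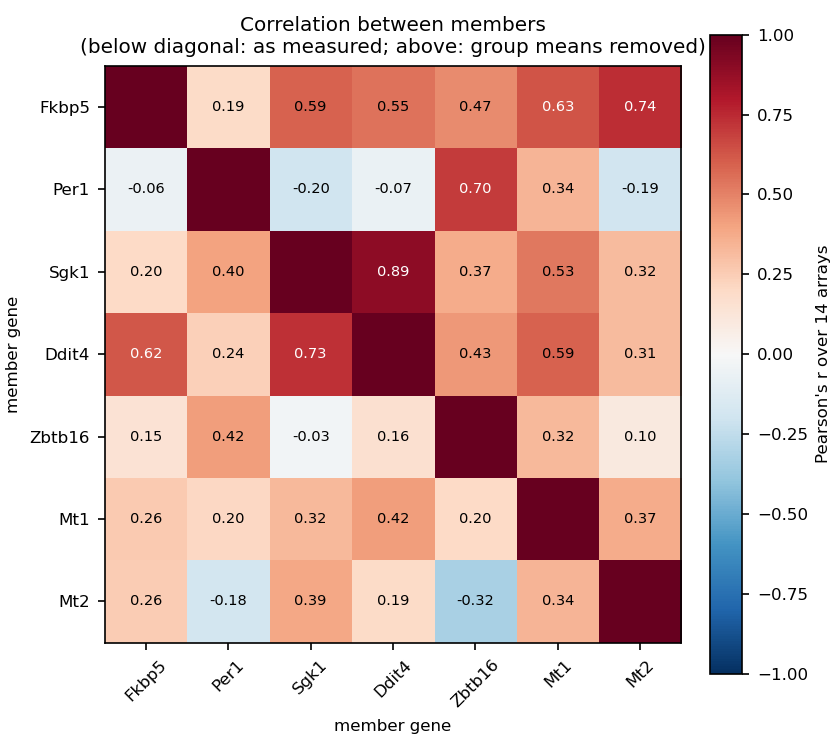
Pearson's r between members over 14 arrays (both axes: genes, colour and number: r), as measured below the diagonal and with group means removed above it. The Sgk1 and Ddit4 cells, 0.73 and 0.89, are the highest on each side.

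The genes most like each member over the 14 arrays, by Pearson's r, were Crcp (0.888) and Ehmt2 (0.861) for Fkbp5, Tfcp2l1 (0.828) and Plxnb2 (0.822) for Sgk1, Baiap2l1 (0.889) and Fbxw7 (0.886) for Ddit4 and Itm2a (0.860) and Sema4f (0.826) for Per1. For Zbtb16 they were Pdk4 (0.864) and Naca (0.844), for Mt1 Zfhx3 (0.818) and Crx (0.804), and for Mt2 Get4 (0.789) and Tbrg4 (0.773). They were picked as the 2 highest among all tested probe sets with 1 gene name, so the values are a description with no test.

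Other genes of the same pathways were taken from lists. Of 24 other glucocorticoid-induced genes measured, 3 rose in WT at 30 min. They were Dusp1, a MAP kinase phosphatase, Zfp36, an RNA-decay factor, and Nfkbia, the NF-kB inhibitor, by 2.21, 1.70 and 1.5. In WT at 120 min Nfkbia, Dusp1 and Cebpd rose by 2.42, 1.13 and 1.05, against 0.101% and 0.515% of all tested probe sets called in WT at the 2 times. None of the 24 was called in KO, where no probe set of the array was called at either time. In the KO response minus the WT response, 2 of the 24 were called, both lower, at 30 min and 3, all lower, at 120 min. Over all tested probe sets 0.0783% and 0.134% were called there. Those 4 genes that rose in WT are also known targets of other stress and inflammatory pathways. The list's median was 0.04 and 0.09 in WT and 0.13 and 0.01 in KO at 30 and 120 min, against all-probe-set medians of 0.00 and -0.00 in WT, -0.01 and -0.00 in KO. None of 8 receptor, chaperone and steroid metabolism genes, 12 metal and oxidant response genes, 12 other clock genes or 12 hypoxia and starvation genes was called in these 4 comparisons. The receptor gene Nr3c1 was at -0.12 ± 0.21 in WT at 30 min and 0.01 ± 0.21 at 120 min. In WT at 120 min the largest changes of each list were as follows. The receptor coactivator Ncoa2 was at 0.89 ± 0.21 (limma adjusted p = 0.128) and Hsd11b1, which regenerates active glucocorticoid, at 0.26 ± 0.26. Gclc, an enzyme of glutathione synthesis, was at 0.56 ± 0.27 and the metallothionein gene Mt3 at -0.45 ± 0.50. The clock repressors Cry2 and Bhlhe40 were at 0.45 ± 0.19 and 0.40 ± 0.28. The stress-response genes Ddit3 and Trib3 were at 0.86 ± 0.29 (adjusted p = 0.405) and 0.49 ± 0.27, and in KO Ddit3 was at 0.84 ± 0.29 at 30 min and 0.75 ± 0.29 at 120 min.

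Summed markers of other cell types differed between the groups, and a sum follows its brightest genes. The B cell sum was 633 to 926 in WT at 120 min against 1407 to 1906 untreated, with the B cell receptor inhibitor Cd22 called at -1.62. In KO it was 1662 to 2280.3 at 120 min against 1221 to 1569 untreated. The median log2 change of the 7 B cell genes at 120 min was -0.87 in WT, with 0 above 0. In KO that median was 0.05, with 4 above 0. The T cell sum was 267 to 320 in WT at 120 min against 525 to 577 untreated, and the sum of 5 genes of endothelium and node stroma was 431 to 458 against 640 to 783. In KO the T cell sum was 405 to 547 at 120 min against 309 to 415 untreated, and the stroma sum 717 to 938 against 732 to 1106. No T cell or stroma marker was called in either genotype at 120 min, and in KO no probe set of the array was called then. The salivary gland sum in KO was 50590 to 52299 at 120 min against 32309 to 41896 untreated. In WT it was 38766 to 44681 against 38154.5 to 41600. The median log2 change of the 5 salivary gland genes in KO at 120 min was 0.003, with 3 above 0. The macrophage sum was 1550 to 2082 against 1441 to 1476 in KO, and 1345 to 1413 against 1405 to 1491.5 in WT. The Gapdh 3′ to 5′ signal ratio, a sign of RNA quality, was 0.723 to 0.891 on the 4 arrays at 120 min and 0.867 to 1.01 on the untreated arrays. The same ratio of beta-actin was 1.33 to 1.41 at 120 min, inside its untreated range of 1.24 to 1.58. The part of the markers and of RNA quality in the members' values was not tested.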

How the data were processed

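The deposited values are linear intensity values per probe set and array. They share a trimmed mean of 150.1 on every array, so the authors had scaled each array, judging by the values alone. Software and settings are not given in these sources. Groups came from the sample titles. Of 12488 probe sets, 66 control probe sets were left out, and 8938 above their array's 40th percentile on at least 2 arrays were tested, including 8 of the 9 member probe sets. Values were taken as log2(value + 32), quantile normalized, and fitted with limma 3.58.1 in R 4.3.3 as 6 group means over 14 arrays (8 residual degrees of freedom, 4.56 prior). p-values were adjusted by Benjamini-Hochberg over 8938. Correlations used 100000 permutations. Of 15 comparisons 12 were planned and 3 were added after seeing the data, namely KO minus WT at 30 min, KO minus WT at 120 min, which gave the lowest p of Sgk1, and all IR against all untreated arrays, which gave the lowest p of Fkbp5. The fit was tested on simulated data. The members and lists were chosen with earlier results of these data known. Every member probe set is named. Of other lists, a gene is named where it was called or else had one of the 2 largest changes, and Nr3c1, Lcn2 and the cell type markers were chosen after their values were seen. Gene names came from the platform annotation. Alternatives changed the offset, the floor, the normalization, the filter, the arrays in the fit, the replicate block and the intensity trend, and left out each array in turn.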

Additional observations from a re-analysis of the deposited data

Results flagged for a closer look

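Among the tested member probe sets, both WT arrays moved one way from the untreated mean of their genotype and both KO arrays the other way at 1 time after IR in 4 instances. At 30 min Per1 was lower in WT (-0.17 and -0.18) and higher in KO (0.67 and 0.15), a difference of response of 0.59 ± 0.34 (limma unadjusted p = 0.107, adjusted p = 0.868). It was 0.33 without KO 30 min replicate A and 0.84 without replicate B. Mt2 was higher in WT and lower in KO at both times, by -0.55 ± 0.31 at 30 min (adjusted p = 0.868) and -0.74 ± 0.31 at 120 min (unadjusted p = 0.0334, adjusted p = 0.663). Its changes in KO were only -0.07 and -0.11 without KO untreated replicate A. At 120 min Sgk1 was higher in WT (0.07 and 0.24) and lower in KO (-0.49 and -0.48), a difference of -0.64 ± 0.34 (adjusted p = 0.774). None of the 4 differences passed adjustment. These instances were picked by their signs, so the p-values of the differences add no support to them. The share of all tested probe sets with such signs was not counted. The same signs appeared at 120 min in Tsc22d3, whose probe set was too dim to be tested in the main analysis. Its values are too low for an order of the groups to be read from these signs. With no filter on low values its difference of response was 0.63 ± 0.27 (limma unadjusted p = 0.036, adjusted p = 0.738). No group was large enough to test for a single outlying array.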

How the results depend on the processing

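No member was called under any of 21 alternatives in any of the 15 comparisons. Of 2520 recomputed changes, 100 changed sign, none of them called. The smallest adjusted p was 0.097, for Per1 between 120 and 30 min in KO without KO 30 min replicate B. Whether replicate letters pair arrays could not be settled. Residual correlations of same-letter arrays ran from -0.12 to 0.08 (31 pairs) and those of other letters from -0.12 to 0.12. In groups of 2 arrays the residuals mirror each other, so the second range largely repeats the first with opposite sign. The replicate block left 0 members called. Counts over the whole array moved more. In WT at 120 min 46 probe sets were called, 25 with the block, 21 with only the compared groups in the fit and 13 without WT 120 min replicate B. Without KO 30 min replicate B, calls in KO at 30 min went from 0 to 240, between 120 and 30 min in KO from 0 to 110, and for KO minus WT at 30 min from 9 to 121. WT at 120 against 30 min went from 11 to 0 without WT 30 min replicate B, 3 with offset 16 and 23 with an intensity trend. KO minus WT at 120 min went from 23 to 4 with only those groups fitted and 39 with the trend. For the mean over genotypes, the block gave 2 in place of 8 at 30 min and 8 in place of 19 at 120 min, and leaving out single arrays gave 3 to 30 and 8 to 28. Differences of response went from 7 to 3 at 30 min and from 12 to 5 at 120 min with the block (2 to 28 and 3 to 18 with single arrays left out). All IR against untreated went from 12 to 6 with the block, and the genotype mean from 15 to 43 without KO 30 min replicate B. WT at 30 min went from 9 to 5, and KO minus WT at 30 min from 9 to 0, with only those groups fitted. Without KO 120 min replicate B, KO at 120 min went from 0 to 11 and KO minus WT at 120 min from 23 to 49. Untreated KO minus WT went from 0 to 7 without KO untreated replicate B. The causes were not tested. The number of arrays limits the precision, since the standard errors of members' changes against untreated were 0.17 to 0.26.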
